A study of Mus musculus with 6 samples.

Results

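Genes of the Wnt pathway were examined in cells sorted from mouse small cell lung tumours: the ligands, the Frizzled and Lrp receptors, the secreted antagonists, the Tcf/Lef factors, the feedback genes and the Lgr receptors. The members were taken from a list of 49 gene symbols, through all probe sets annotated to exactly 1 of them. Values were found for 48, among 18193 genes in all, and Tcf7 was not analysed here. Each gene is represented by its brightest probe set over the 6 arrays. All animals carried the Rb/p53/p130 triple knockout model on a mixed C57BL/6;129Sv/J background, and tumours were taken 6 to 7 months after Adeno-Cre infection, so both fractions come from tumours with the same engineered deletions. No source used here gives the promoter that drives Cre, the sorting gates, the age of the animals or how many tumours a mouse gave. Lung cells of the host that were not infected keep the deleted genes. Mice 1127, 920 and 0107 each gave a sample sorted with the markers of tumour-propagating cells (TPCs) and a sample of non-TPCs, after staining for CD24, CD44 and EpCAM, without treatment. Levels are RMA values on a log2 scale, differences are TPC minus non-TPC, and each mean is given with its SD (n = 3).

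Wnt proteins are lipid-modified secreted ligands that bind Frizzled receptors together with the co-receptors Lrp5 or Lrp6. In the canonical branch this stops a cytoplasmic complex from destroying beta-catenin, which then acts with Tcf/Lef factors on target genes, and several of those targets encode inhibitors that dampen the signal. In the lung, Wnt ligands and antagonists are made by epithelial as well as stromal cells, and Wnt signalling is known to maintain alveolar type 2 progenitors.

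Both fractions expressed neuroendocrine genes. Chga ranged from 9.67 to 11.91 and Insm1 from 10.61 to 12.36 over the 6 arrays. The summed level of the 7 measured neuroendocrine markers (log2 of the summed linear signal) was 13.30 to 13.88 in TPCs and 13.11 to 13.35 in non-TPCs, and 3 of the 7 were higher in TPCs of all 3 mice. Markers of several other lung cell types were lower in TPCs, and 3 single markers passed the test. The surfactant genes Sftpa1 and Sftpc of alveolar type 2 cells differed by -3.41 and -2.20 (limma adjusted p = 0.00374 and 0.0238), and S100a9 of neutrophils by -3.25 (0.0338). Alveolar type 1, club, macrophage and leukocyte markers were lower in every mouse for 4 of 6, 4 of 4, 5 of 6 and 3 of 5, without a call. The summed level of 8 fibroblast markers was 10.58 to 11.68 in TPCs and 11.80 to 14.38 in non-TPCs, with the highest value in the non-TPCs of mouse 1127. In bulk samples, fewer cells of a type and less RNA per cell cannot be told apart.

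The sequences before the transcription start are shown for the members that the results below turn on (Fzd1, Sfrp5 and Nkd1) and for those whose window held more than 1 match to the letters that Tcf/Lef factors are known to bind (Sp5 and Dkk1). The letters searched were CTTTGAT, the variant CTTTGTT, the variant CTTTGAA and the variant CTTTGTA on both strands, with overlapping matches counted, in the 250 bases before each start of the RefSeq promoter table (GRCm38.p6). The windows, each just upstream of the annotated start, are chr5:4758217-4758466 (minus strand) for Fzd1, chr19:42202253-42202502 (minus strand) for Sfrp5, chr8:88527383-88527632 (plus strand) for Nkd1, chr2:70474673-70474922 (plus strand) for Sp5 and chr19:30549497-30549746 (minus strand) for Dkk1. The sequences run 5′ to 3′ on the strand of the gene, and capitals mark a match.
Fzd1: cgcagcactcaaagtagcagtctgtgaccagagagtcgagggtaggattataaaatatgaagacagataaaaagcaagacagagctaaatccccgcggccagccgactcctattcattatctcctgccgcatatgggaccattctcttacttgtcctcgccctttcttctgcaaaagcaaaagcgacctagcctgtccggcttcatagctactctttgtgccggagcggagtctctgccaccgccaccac
Sfrp5: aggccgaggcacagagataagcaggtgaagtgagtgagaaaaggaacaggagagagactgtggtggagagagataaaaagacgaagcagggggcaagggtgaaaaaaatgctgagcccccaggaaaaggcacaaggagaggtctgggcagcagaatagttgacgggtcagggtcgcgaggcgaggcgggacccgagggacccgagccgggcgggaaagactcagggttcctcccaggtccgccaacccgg
Nkd1: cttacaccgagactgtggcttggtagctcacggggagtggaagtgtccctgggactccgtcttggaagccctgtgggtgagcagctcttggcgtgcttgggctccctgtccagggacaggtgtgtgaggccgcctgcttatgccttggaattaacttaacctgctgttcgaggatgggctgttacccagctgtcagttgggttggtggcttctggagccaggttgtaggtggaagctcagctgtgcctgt
Sp5: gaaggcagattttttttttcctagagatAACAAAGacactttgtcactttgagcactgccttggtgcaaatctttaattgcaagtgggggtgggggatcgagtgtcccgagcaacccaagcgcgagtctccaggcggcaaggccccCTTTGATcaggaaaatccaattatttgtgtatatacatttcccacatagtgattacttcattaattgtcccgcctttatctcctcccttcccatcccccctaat
Dkk1: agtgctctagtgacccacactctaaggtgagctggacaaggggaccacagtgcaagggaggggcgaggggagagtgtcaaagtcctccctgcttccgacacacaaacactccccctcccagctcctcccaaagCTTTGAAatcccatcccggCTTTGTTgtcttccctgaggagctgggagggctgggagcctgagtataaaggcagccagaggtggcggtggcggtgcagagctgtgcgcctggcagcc
No match was found in the windows of Fzd1, Sfrp5 and Nkd1. The Sp5 window held CTTTGAT 104 to 98 bases before the start and, on the other strand, CTTTGTT 222 to 216 bases before it. Dkk1 held CTTTGAA at 117 to 111 and CTTTGTT at 98 to 92 bases. Of the 49 listed genes, 33 had a start in the table, and 7 of their 42 starts (16.7%) held a match, against 14.8% of all 32851 starts. Those starts belong to Fzd7, Sp5, Lef1, Wnt5b, Wnt11, Dkk1 and Tcf7l2, whose differences between the fractions were 0.11, 0.25, -0.04, 0.50, -0.22, 0.01 and -0.18. A match describes these letters and is no evidence of binding, and the start used in these cells is unknown for genes with several.

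No Wnt gene passed the test across all genes. In limma, 0 of the 48 members had an adjusted p under 0.05, where 0.0605% of all genes were called, all of them lower in TPCs. Fzd1 and Rnf43 were the 2 lower members with an unadjusted p under 0.05, against a background of 4.35%, and Wnt5b, Sfrp5 and Nkd1 were the 3 higher ones, against 2.12%. With the mouse as a replicate block, 0 members were called (background 0.0715%) and the unadjusted counts were 5 lower (background 6.23%) and 5 higher (3.62%), with Fzd4, Dkk2 and Dkk3 added below and Znrf3 and Apcdd1 above. The median difference of the members was 0.01, beside 0.04 over all genes. The members ranged from -1.39 to 0.73, and 29 of the 48 lay within 0.25 of 0, as did 70.8% of all genes.

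The direction was the same in all 3 mice for 24 members, 12 lower and 12 higher. Over all genes, 13.8% were lower and 19.7% higher in every mouse. The mean difference also reached 0.5 for 4 of the lower members, Fzd1, Fzd4, Sfrp2 and Dkk2 (background 5.77%), and for 3 of the higher ones, Wnt5b, Sfrp5 and Apcdd1 (background 2.61%). TPC and non-TPC values did not overlap for 7 lower members (background 5.91%), which were Wnt4, Wnt11, Fzd1, Fzd2, Dkk2, Rnf43 and Lgr6, and for 4 higher ones (background 6.71%), Wnt5b, Wnt7b, Lrp5 and Nkd1. When each array was centred on its median, these counts were 3 lower (background 4.51%) and 6 higher (9.49%). Fzd1, Fzd2 and Dkk2 were the lower ones that remained. Centring also gave 8 members lower (background 10.1%) and 15 higher (25.8%) in every mouse, as it moves mean differences up by 0.06.

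**Figure D1:**
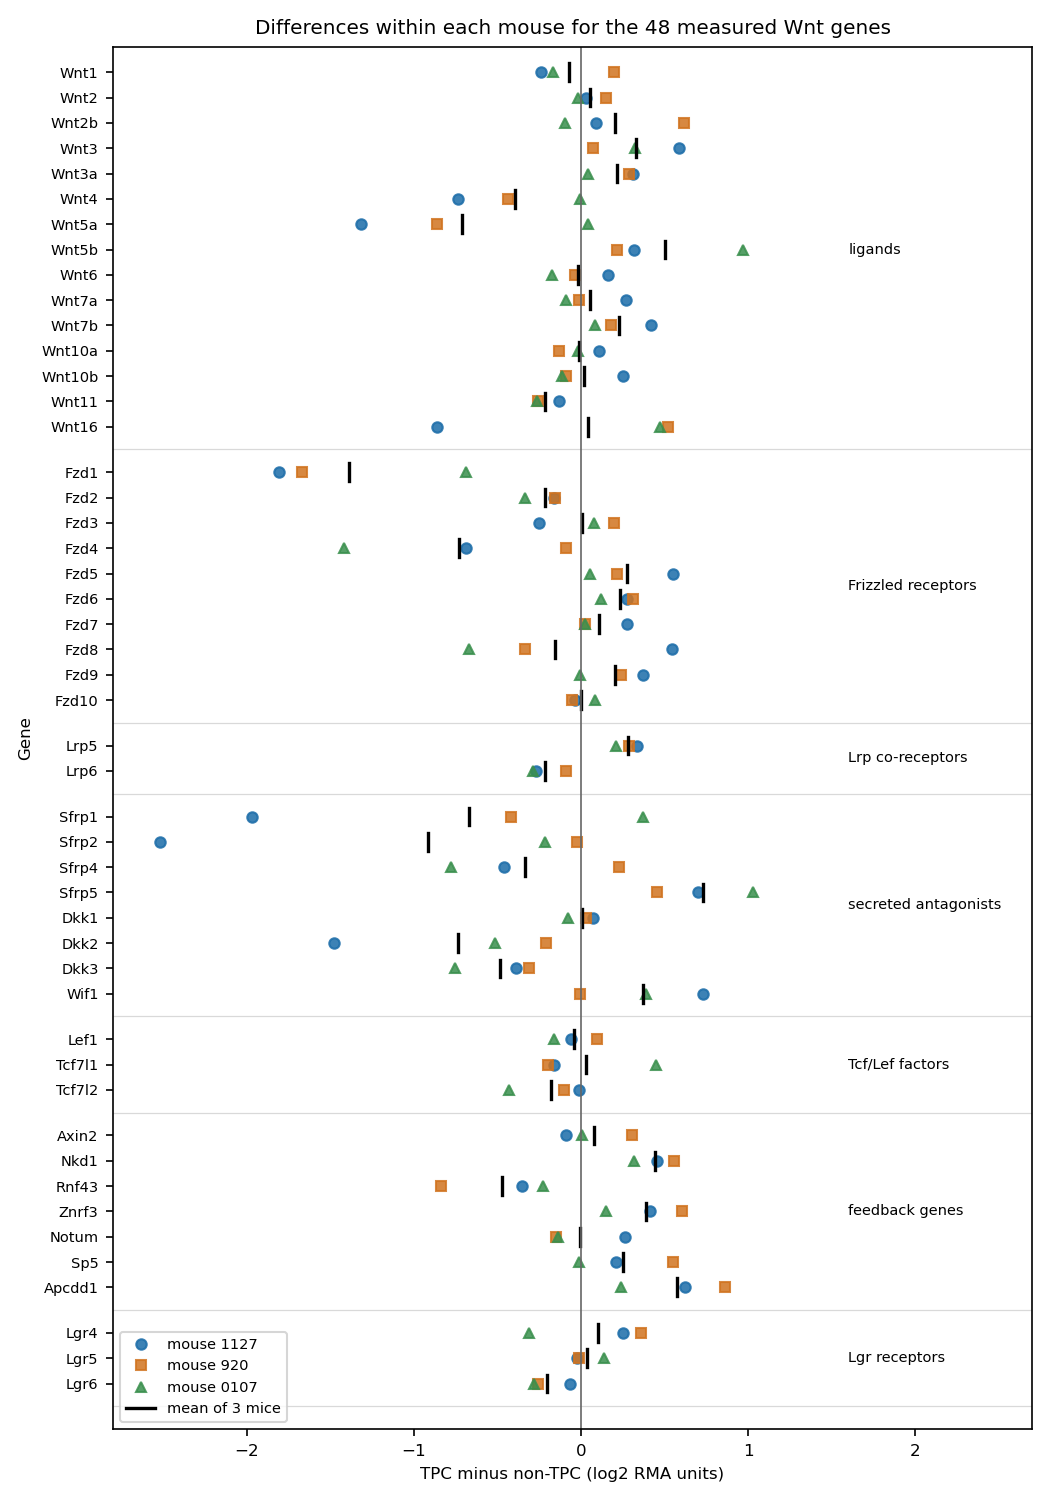
Differences between TPCs and non-TPCs within each mouse for the 48 measured Wnt genes, grouped by role. The x axis is in log2 RMA units, symbols are the 3 mice and bars their mean. Fzd1 lies farthest below 0 on average (-1.39) and Sfrp5 farthest above (0.73), while 29 of the 48 lie within 0.25 of 0 (70.8% of all genes).

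Among the 15 ligands, Wnt5b was higher in TPCs of every mouse, and no ligand passed the test. Wnt5b, a ligand mostly linked to beta-catenin-independent signalling, stood at 7.17, 6.95 and 7.48 in TPCs of mice 1127, 920 and 0107 and at 6.85, 6.73 and 6.50 in their non-TPCs. The lowest TPC value lay just above the highest non-TPC value, and mouse 0107 had the widest gap. Its means were 7.20 ± 0.27 and 6.70 ± 0.18, a difference of 0.50 (SE 0.18, limma adjusted p = 0.694). Without mouse 0107 the difference was 0.27. A dimmer second Wnt5b probe set differed by -0.03.

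Wnt4, a ligand known from kidney and reproductive tract development, was at 6.04, 6.51 and 6.67 in TPCs and 6.78, 6.95 and 6.68 in non-TPCs. The fractions did not overlap, but in mouse 0107 they were level (difference -0.01). The mean difference was -0.39 (95% interval -0.86 to 0.07, adjusted p = 0.823). Wnt5a, the close relative of Wnt5b, fell outside the naming rule and was singled out after its values were seen. It was at 5.62, 5.41 and 5.28 in TPCs and 6.93, 6.27 and 5.23 in non-TPCs, so mice 1127 and 920 differed by -1.32 and -0.86 while mouse 0107 differed by 0.04. A second Wnt5a probe set showed the same split more widely, with -2.59, -1.82 and 0.12. The mean difference of the brightest was -0.71 (SE 0.41, adjusted p = 0.873). The other 12 ligands differed by -0.22 to 0.33. Among them, Wnt3a was at 6.26 to 6.82 in non-TPCs and 6.58 to 6.86 in TPCs, and Wnt7b, a ligand of the lung epithelium, was higher in every mouse by 0.08 to 0.42.

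Fzd1 had the largest difference of any member and was lower in TPCs of all 3 mice. It encodes a seven-pass Wnt receptor. Its TPC levels were nearly identical, at 5.49, 5.58 and 5.53 in mice 1127, 920 and 0107, and its non-TPC levels were 7.30, 7.25 and 6.22. All non-TPC values lay above all TPC values, with mouse 0107 the lowest of them. The means were 5.53 ± 0.05 and 6.92 ± 0.61, a difference of -1.39 (95% interval -2.10 to -0.68), which is 2.62-fold. It did not pass (limma adjusted p = 0.357, 0.204 with the replicate block and 0.153 with a random block for mouse). With the 0107 non-TPC array left out, which leaves the TPC array of that mouse unpaired, the difference was -1.74 and it passed (adjusted p = 0.0234). Over all alternatives its adjusted p ranged from 0.0234 to 0.9997. The second Fzd1 probe set was dim on every array, from 3.48 to 4.14, and went the other way, by 0.27, 0.39 and 0.41, so the direction rests on the bright probe set.

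In non-TPCs, Fzd1 and Wnt5a were highest in mouse 1127 and lowest in mouse 0107, and the summed levels of 4 of the 14 marker lists had the same order. For mesothelial markers the sums were 8.37, 8.28 and 7.79 in mice 1127, 920 and 0107, against 7.55 to 7.71 in TPCs. By single marker, 2 of 5 had that order, Upk3b and Wt1, and 4 of 5 were lower in TPCs of every mouse. Fibroblast sums were 14.38, 12.62 and 11.80 and are dominated by Dcn. Of the 8 markers, 3 had the order (Col1a2, Col3a1 and Dcn) and 5 were lower in every mouse. Leukocyte sums were 10.91, 10.82 and 10.01, against 9.67 to 10.21 in TPCs, and 2 of 5 markers had the order. Ptprc, at 9.16, 8.70 and 7.91, was lower in TPCs of every mouse. Coro1a, at 8.03, 7.82 and 6.71, was higher in TPCs of every mouse. The smooth muscle and pericyte sum is the fourth, at 10.18, 9.03 and 9.02, so mice 920 and 0107 were nearly level. Of its 7 markers, 2 had the order. The lowest single levels were 3.60 for mesothelial, 3.69 for fibroblast, 4.94 for leukocyte and 4.82 for muscle and pericyte markers. Signal over background is unknown here, so the lowest levels of these and later lists do not show whether a marker was present. With 3 non-TPC arrays an order is easily shared, and the share of all genes with this order was not taken. The part of these cell types in the differences was not tested.

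Fzd4, the receptor for Norrin as well as Wnt ligands and a gene of vascular development, was lower in TPCs mainly in mouse 0107. It stood at 6.97, 6.70 and 6.91 in TPCs and 7.66, 6.80 and 8.32 in non-TPCs, so mouse 920 showed almost no gap. The difference was -0.73 (95% interval -1.61 to 0.14, adjusted p = 0.829). With the replicate block the interval was -1.42 to -0.04 (limma adjusted p = 0.476). The difference became -0.37 when the 0107 non-TPC array was left out. A second Fzd4 probe set gave -1.07, 0.14 and -1.49 in mice 1127, 920 and 0107. Of the 7 endothelial markers, 6 had the same order of mice in non-TPCs, Vwf (11.00, 10.72 and 9.81) being the exception. The tight junction gene Cldn5 was at 7.29, 5.79 and 9.03, the VEGF receptor Kdr at 7.71, 7.06 and 8.21 and the cadherin Cdh5 at 6.12, 4.88 and 6.89. Of these markers, 3 were lower in TPCs of every mouse, and the lowest single level was 3.43. Their summed level, which is dominated by Vwf, was 10.53 to 11.02 in TPCs. In non-TPCs it was 11.34, 10.94 and 10.97 in mice 1127, 920 and 0107, so the sum did not have the Fzd4 order. The sums of 2 lists had it, neutrophil and ciliated. Neutrophil sums were 10.61, 9.86 and 10.83 in mice 1127, 920 and 0107, against 7.39 to 7.89 in TPCs. Ciliated sums were 9.63, 9.13 and 10.14, against 8.59 to 9.24. The lowest single levels of these lists were 4.55 and 3.97. Of the neutrophil and ciliated markers, 3 of 4 and 2 of 5 were lower in every mouse. The share of all genes with the Fzd4 order in the 3 non-TPC arrays was not taken. The part of these cells in the Fzd4 difference was not tested.

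The receptors with the brightest probe sets showed little difference. Fzd3, a receptor of axon guidance and planar polarity, was at 8.33, 9.28 and 8.96 in TPCs and 8.58, 9.09 and 8.88 in non-TPCs (difference 0.01, 95% interval -0.64 to 0.65). Its next probe sets, also above the median level of all genes (6.91), differed by 0.71 and 0.67, so the Fzd3 probe sets do not give 1 answer. Fzd6 was at 8.57, 8.99 and 8.05 in TPCs and 8.30, 8.68 and 7.93 in non-TPCs, higher in every mouse by 0.12 to 0.31 with overlapping groups (adjusted p = 0.922). Of the 10 Frizzled genes, 3 were lower and 3 higher in TPCs of every mouse (all genes 13.8% and 19.7%), and their median difference was 0.00. Fzd7, counted as higher, differed by 0.11, while its dimmer second probe set gave -1.29, -0.94 and 0.47 in mice 1127, 920 and 0107.

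The co-receptors leaned in opposite directions by small amounts. Lrp6 was at 7.98, 8.33 and 8.08 in TPCs and 8.25, 8.42 and 8.37 in non-TPCs, lower in each mouse by 0.09 to 0.29 (difference -0.22, 95% interval -0.56 to 0.13, adjusted p = 0.882). Lrp5 was dim on all arrays. Its values were 4.36, 4.50 and 4.47 in TPCs and 4.02, 4.21 and 4.25 in non-TPCs, without overlap (difference 0.28, adjusted p = 0.810).

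**Figure D2:**
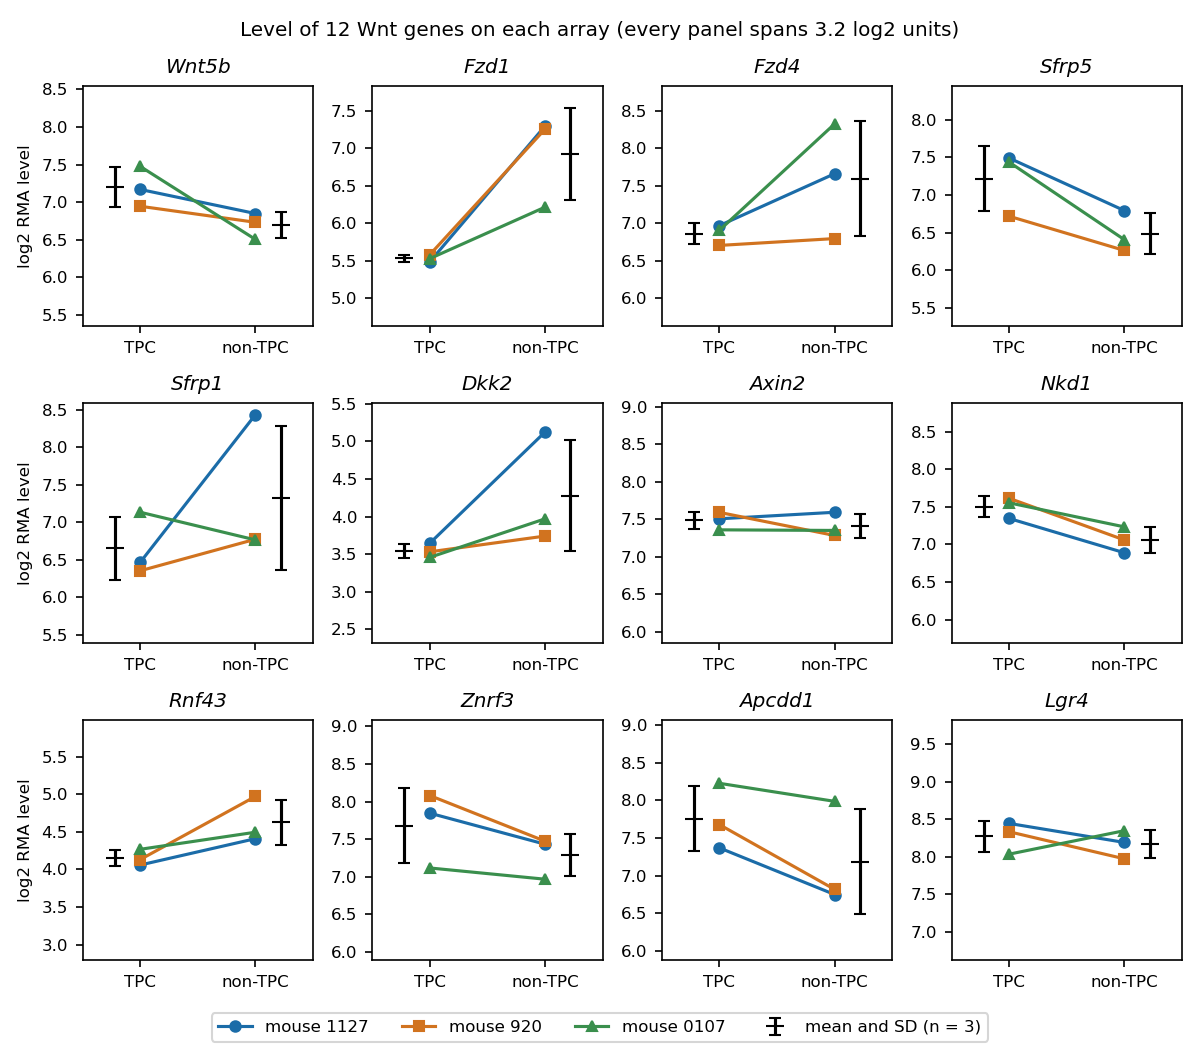
Level of 12 Wnt genes on each of the 6 arrays, in log2 RMA units, with lines joining the fractions of a mouse and black marks for the mean and SD of 3 mice. Fzd1 is at 5.49 to 5.58 in all TPC arrays and at 6.22 to 7.30 in non-TPCs, Nkd1 is higher in TPCs of each mouse, and Axin2 shows no common direction.

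Secreted antagonists, which keep Wnt ligands or Lrp co-receptors from signalling, split into Sfrp5 above and several others below. Sfrp5, a Frizzled-related decoy for Wnt ligands, was at 7.49, 6.72 and 7.44 in TPCs and 6.79, 6.26 and 6.40 in non-TPCs. It was higher in every mouse, by 0.70, 0.46 and 1.03, although the TPC value of mouse 920 lay below the non-TPC value of mouse 1127. The means were 7.21 ± 0.43 and 6.49 ± 0.27, a difference of 0.73 (95% interval 0.12 to 1.34, limma adjusted p = 0.665, and 0.270 with the replicate block). A second Sfrp5 probe set, at 6.03 to 6.26 on all arrays, differed by 0.01.

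Sfrp2 and Sfrp1 were high in 1 array, the non-TPCs of mouse 1127. Sfrp2 was at 6.29 there and at 3.47 to 3.77 on the other 5 arrays. The difference was -0.92 (SE 0.68, adjusted p = 0.889), and without that array it was -0.06. Sfrp1 was at 8.43 in the same sample and at 6.35 to 7.13 elsewhere, with a difference of -0.67 (adjusted p = 0.887) that was -0.12 without it. Other Sfrp1 probe sets did not show a peak of that size, the second brightest being at 5.84 to 6.31 on all arrays. Dkk2, an antagonist that binds Lrp co-receptors, had its highest value in that sample too. It stood at 3.65, 3.53 and 3.46 in TPCs and 5.12, 3.74 and 3.97 in non-TPCs, without overlap (difference -0.73, adjusted p = 0.819, and -0.31 without that array). Among non-TPCs this sample had the highest level of 5 of 8 fibroblast markers, with Col1a2 at 11.11 and Col3a1 at 11.85, while Pdgfra and Mfap4 were highest in mouse 0107 and Tcf21 in mouse 920. The sample of mouse 1127 also had the highest smooth muscle and pericyte sum (10.18, against 9.02 and 9.03 in the other non-TPCs and 8.82 to 8.96 in TPCs). Of those 7 muscle and pericyte markers, 3 were lower in TPCs of every mouse, and the lowest single level was 4.82. The part of these cells in the Sfrp and Dkk2 values was not tested.

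Dkk3, which lies outside the naming rule and was singled out after its values were seen, had a second probe set of the same direction. Both measured a lower level in TPCs of every mouse, by -0.39, -0.31 and -0.75 in the first and -0.66, -0.28 and -0.85 in the second (mean differences -0.48 and -0.60). The adjusted p of the first was 0.877, and 0.401 with the replicate block. Sfrp4, Dkk1 and Wif1 differed by -0.34, 0.01 and 0.37.

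**Figure D3:**
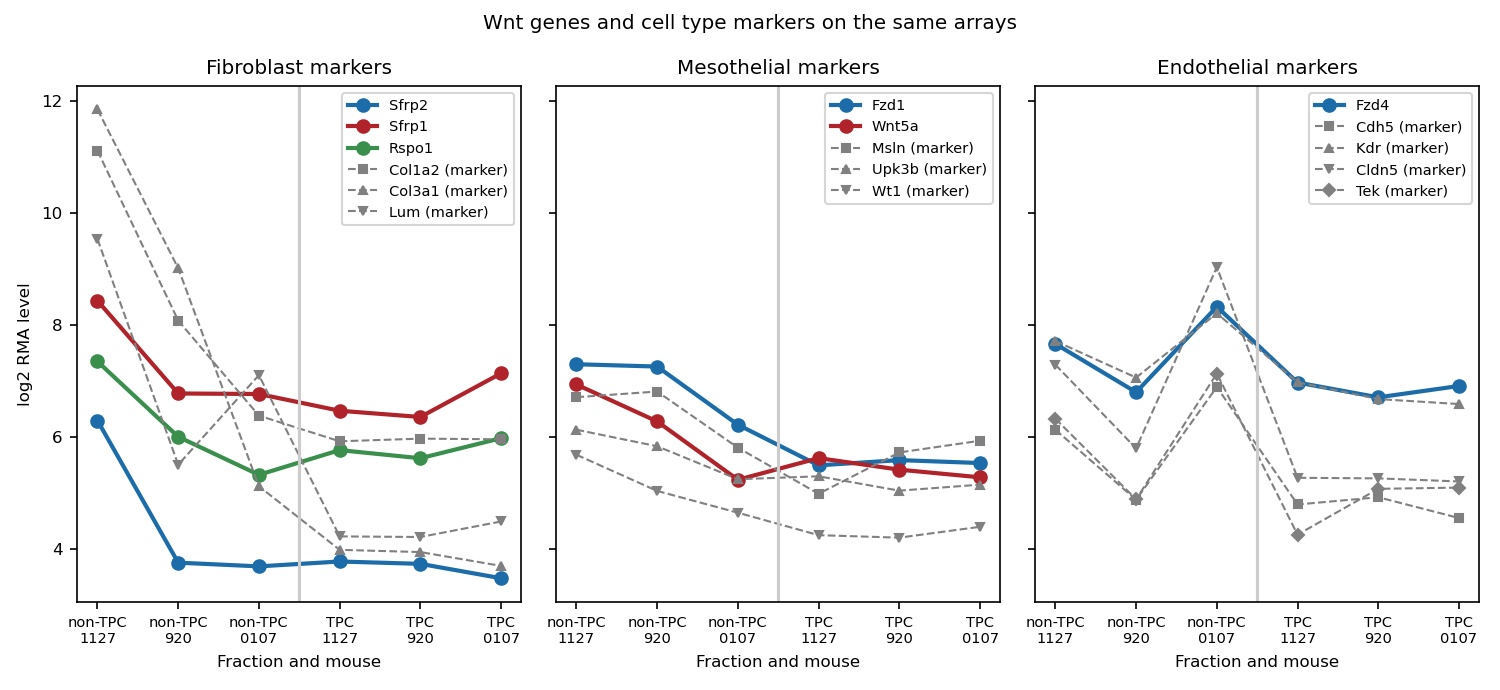
Levels of Wnt genes (coloured, solid) and cell type markers (grey, dashed) on the same 6 arrays in log2 RMA units, for fibroblast, mesothelial and endothelial markers. The plotted markers were chosen for their visible variation, and not all others share their peaks. Among unplotted fibroblast markers in non-TPCs, Col1a1 and Dcn were highest in mouse 1127, Pdgfra and Mfap4 in 0107 and Tcf21 in 920. Unplotted mesothelial markers were highest in mouse 0107 (Lrrn4) and 920 (Upk1b). Of the unplotted endothelial markers, Pecam1 and Emcn were highest in mouse 0107, where Vwf was lowest. Sfrp2 peaks at 6.29 with Col3a1 in the non-TPCs of mouse 1127, and Fzd4 peaks at 8.32 with Cldn5 in those of mouse 0107.

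On their brightest probe sets, the Tcf/Lef factors, which carry beta-catenin to DNA, did not differ beyond the spread between mice. Tcf7l1, mostly a repressor, was at 7.53, 7.02 and 7.04 in TPCs and 7.69, 7.21 and 6.59 in non-TPCs (difference 0.03, 95% interval -0.68 to 0.75). Lef1 was at 5.72, 5.94 and 5.92 against 5.78, 5.84 and 6.08 (difference -0.04, interval -0.38 to 0.30). Tcf7l2 was dim, at 4.56, 4.58 and 4.67 against 4.57, 4.68 and 5.10, and differed by -0.18. It was lower in every mouse, by 0.01 to 0.43. Still dimmer Tcf7l2 probe sets differed by 0.01, -0.26 and -0.49, and those at -0.26 and -0.49 were lower in every mouse.

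Feedback genes, whose transcription rises with canonical signalling in many tissues, gave no common direction. Axin2, a scaffold of the destruction complex and the most widely used readout of canonical signalling, was at 7.51, 7.59 and 7.36 in TPCs and 7.59, 7.28 and 7.35 in non-TPCs. The fractions overlapped, and the mice differed by -0.09, 0.31 and 0.01. The mean difference was 0.08, with a 95% interval of -0.27 to 0.42 (adjusted p = 0.945). Nkd1, which binds Dishevelled and dampens the signal, was at 7.35, 7.61 and 7.55 in TPCs and 6.89, 7.06 and 7.23 in non-TPCs. Every TPC value exceeded every non-TPC value, and the mice differed by similar amounts of 0.46, 0.55 and 0.32. Its means were 7.50 ± 0.14 and 7.06 ± 0.17, a difference of 0.44 (95% interval 0.08 to 0.80, limma adjusted p = 0.641). The 3 dimmer Nkd1 probe sets differed by 0.10, 0.24 and 0.30.

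Znrf3 and Rnf43, sister ubiquitin ligases that remove Frizzled receptors from the cell surface, leaned opposite ways. Znrf3 was at 7.85, 8.08 and 7.12 in TPCs and 7.43, 7.47 and 6.97 in non-TPCs, higher in every mouse by 0.41, 0.61 and 0.15 with overlapping groups (difference 0.39, adjusted p = 0.887). With the replicate block its 95% interval was 0.01 to 0.77 (limma adjusted p = 0.499). Rnf43 was dim, at 4.06, 4.13 and 4.27 in TPCs and 4.41, 4.97 and 4.50 in non-TPCs, without overlap (difference -0.47, 95% interval -0.91 to -0.04, adjusted p = 0.734). With the 920 non-TPC array left out it was -0.30. Apcdd1, a membrane inhibitor of Wnt signalling, varied more between mice than between fractions. It was at 7.37, 7.68 and 8.23 in TPCs and 6.75, 6.82 and 7.99 in non-TPCs, so both fractions of mouse 0107 were the highest. Within mice it was higher in TPCs by 0.62, 0.86 and 0.24 (difference 0.57, adjusted p = 0.881, and 0.382 with the replicate block). Notum, an enzyme that strips the lipid from Wnt proteins, differed by -0.01 and the transcription factor gene Sp5 by 0.25. Over the 7 feedback genes, 3 were higher and 1 was lower in TPCs of every mouse (all genes 19.7% and 13.8%), with a median of 0.25. Beside the higher values, the summed neuroendocrine markers were also higher in TPCs of every mouse, and their part was not tested.

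Lgr receptors bind R-spondins and thereby protect Frizzled receptors from Rnf43 and Znrf3. Lgr4 was at 8.45, 8.33 and 8.04 in TPCs and 8.19, 7.97 and 8.35 in non-TPCs, higher in mice 1127 and 920 and lower in mouse 0107 (difference 0.10, 95% interval -0.31 to 0.51). Lgr5, known as a stem cell marker of the intestine, lay between 5.04 and 5.21 on all arrays and differed by 0.04. A second Lgr5 probe set of nearly the same mean level ranged from 4.49 to 5.49. It differed by -0.70, 0.38 and -0.05 in mice 1127, 920 and 0107. Lgr6 was at 4.70, 4.72 and 4.70 in TPCs and 4.76, 4.98 and 4.98 in non-TPCs (difference -0.20, adjusted p = 0.877).

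Few members had both fractions of 1 mouse apart from the rest. A gene was counted when both arrays of 1 mouse lay at least 0.5 above or below the other 4 arrays. This held for 2 of 48 members (4.17%), beside 2.59% of all genes, and is not read as a trait of the members. Wif1, a secreted Wnt inhibitor, was at 5.96 and 5.23 in the TPCs and non-TPCs of mouse 1127 and at 3.43 to 3.86 elsewhere. Fzd5 was at 6.20 and 6.14 in mouse 0107 and at 6.70 to 7.46 in the others. A dimmer second Fzd5 probe set did not show this. There mouse 0107 was the highest in each fraction, at 5.55 in TPCs and 5.22 in non-TPCs, with the other mice at 4.99 to 5.45.

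Several members were measured by more than 1 probe set, and agreement depended on the gene. The 30 such genes had 51 further probe sets, of which 39 shared the sign of the brightest. For Fzd4, Wnt5a and Dkk3 the second probe set had a similar or larger difference of the same sign. For Fzd1, Fzd7, Sfrp1 and Wnt5b, among others, its sign was opposite, and for Sfrp5 its difference was near 0.

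**Figure D4:**
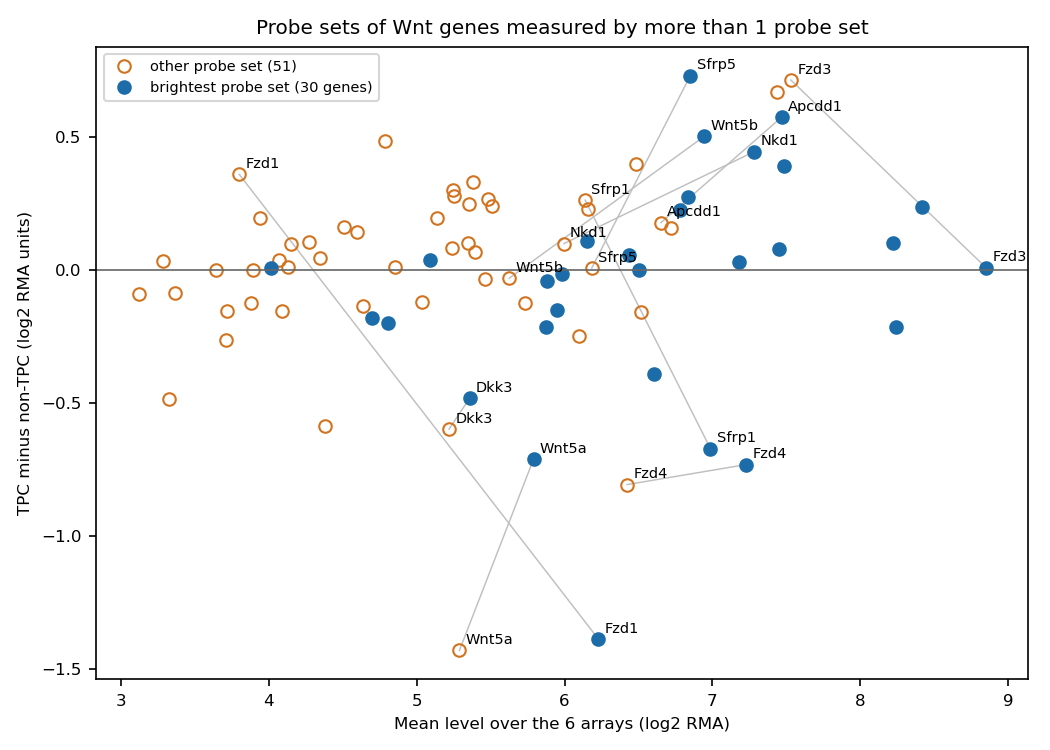
Difference between fractions (y axis, log2 RMA units) against the mean level over the 6 arrays (x axis) for every probe set of the 30 Wnt genes with more than 1. Filled points are the brightest probe set of a gene and open points the others, with lines joining the brightest and second brightest of labelled genes. Fzd1 moves from -1.39 to 0.36 between its probe sets.

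Other genes of the pathway gave 0 calls among the 70 measured, from lists of secretion, R-spondin, further ligand, further antagonist, cytoplasmic, nuclear, polarity and target genes. Unadjusted p under 0.05 was reached by 5 lower and 3 higher genes in limma, where 4.35% and 2.12% of all genes were lower and higher. The lower ones included Ccnd1, which encodes cyclin D1, with a difference of -1.01 and -1.20, -1.16 and -0.68 in mice 1127, 920 and 0107 (adjusted p = 0.128). It was the 1 of 9 target genes that was lower in every mouse, and 3 were higher in every mouse: Fosl1 by 0.53 (adjusted p = 0.861) and Bambi by 0.37 (0.873), followed by Ascl2 with 0.25. Among 13 nuclear cofactors, the 3 with an unadjusted p under 0.05 were also lower in every mouse (13.8% of all genes): the beta-catenin cofactor Bcl9 by -0.68 (adjusted p = 0.275) and the co-repressors Tle2 by -0.87 and Tle4 by -0.38. Of 17 Dishevelled and destruction complex genes, Dvl1 differed by -0.35 and Gsk3a by 0.43, and Ctnnb1, the gene of beta-catenin, was abundant in both fractions and differed by 0.15 (adjusted p = 0.939). Wnt9a was higher in every mouse (0.56), as was the polarity receptor Ror1 (0.36). The R-spondin gene Rspo1 was at 7.35 in the non-TPCs of mouse 1127, as with Sfrp2, and at 5.32 to 6.00 on the other arrays. The ligand escort Wls and the acyltransferase Porcn, both needed for Wnt secretion, were lower in TPCs of mice 1127 and 920 and higher in mouse 0107, with mean differences of -0.33 and -0.37.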

How the data were processed

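Total RNA of 6 sorted samples was hybridised to 1-colour Affymetrix arrays after biotin labelling, per the labels' protocols. The deposited log2 values were made by the authors with RMA, per the submitters' processing notes. No source used here states the version or the log base, and log2 was read from the range of 2.70 to 14.81. RMA makes the arrays' distributions alike, so a shift shared by most genes would not show. Arrays have no read depth, and 3 per fraction limit the precision.

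Probe sets were named through the array annotation and Entrez identifiers (RefSeq, GRCm38.p6), and those with several genes were left out. The comparison used limma 3.58.1 under R 4.3.3 (lmFit and eBayes, two-sided, no block), with Benjamini-Hochberg adjustment over 18193 genes at 0.05 and 95% intervals, and was tested on simulated data. Both fractions came from each animal, and their deviations correlated at 0.30, 0.46 and 0.36, so fits with a replicate block stand beside it.

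The members and lists were chosen with earlier results of these data known. Every array is given for members with an unadjusted p under 0.05, with 1 sign in all mice and a difference of at least 0.5, or with a mean above the median of all genes, and for the 2 smallest p of each role. Outside the members, up to 3 genes a list were named by smallest p. Members with values but outside this rule (Wnt3a, Wnt5a, Wnt7b, Dkk3, Wif1, Fzd5, Lgr5), those given by their difference alone, and Ascl2 and Ctnnb1 were chosen after their values were seen. Alternatives were other blocks, probe set choices, centring, a filter on dim genes, an intensity trend and each array or mouse left out. Protein sequences were not used here.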

Additional observations from a re-analysis of the deposited data

How the results depend on the processing

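No member passed with a replicate block for the mouse, with a random block or with an intensity trend. Nor did any with the mean of probe sets, the second probe set or centred arrays. None passed among the genes above the median level, but that filter kept 12 members and did not test Fzd1, Sfrp5, Rnf43 or Dkk2. Leaving out arrays, the calls of members ranged from 0 to 1, the 1 being Fzd1 without the non-TPC array of mouse 0107. Over the same omissions the genes called lower ranged from 0 to 84 (main 11), members at an unadjusted p under 0.05 from 1 to 4 lower and 0 to 4 higher, members with 1 direction in every remaining mouse from 15 to 18 lower and 13 to 18 higher, members without overlap from 7 to 10 lower and 4 to 14 higher, and the median difference from -0.010 to 0.055. Fewer arrays make 1 direction and no overlap easier to reach, for all genes as well as members. Shares over all genes were not taken for the omissions, the filter on dim genes or the second probe set. Nor were they taken for unadjusted p with centred arrays. Those member counts therefore have no background and are not read as results. The replicate block gave 5 lower (background 6.23%) and 5 higher members (3.62%) at an unadjusted p under 0.05. Genes called lower were 39 with the random block, 4 with the mean of probe sets and 2 with the second probe set. With centred arrays 1 member was lower at an unadjusted p under 0.05, 3 lower members did not overlap (background 4.51%), and the median was 0.072. With the 12 members above the median level these were 0 lower, 2 lower and 5 higher in every mouse, 0 lower and 2 higher without overlap, and a median of 0.088. With the second probe set 1 member was higher at an unadjusted p under 0.05, 7 were lower and 7 higher in every mouse, and 4 lower did not overlap.

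Among the 22 members named by the rule, signs reversed with the second probe set for Wnt5b (-0.032), Fzd1 (0.36), Sfrp1 (0.26), Tcf7l2 (0.010) and Lgr6 (0.14). With centred arrays the sign reversed for Lef1 (0.018). Outside the rule, the second probe set reversed Fzd7 (-0.59), Fzd10 (0.10), Dkk1 (-0.087), Lgr5 (-0.12) and Wnt6 (0.10). Leaving out arrays moved values near 0 across it: Axin2 ranged from -0.039 to 0.17, Fzd3 from -0.21 to 0.27, Lef1 from -0.11 to 0.047, Lgr4 from -0.030 to 0.31 and Tcf7l1 from -0.25 to 0.29. The cause was not tested. Centring shifts every mean difference by 0.06. Signal over background is unknown here, and 3 members (Wnt2, Lrp5 and Dkk1) stayed below the first quartile of all probe sets (4.52) on every array.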
